A study of Mus musculus with 6 samples.

Results

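The genes described here encode 49 enzymes and core subunits that write histone methyl or acetyl groups or remove acetyl groups. Of these, 23 belong to methyltransferases, 9 are acetyltransferases and 17 are deacetylases. The 49 genes were picked by name from known chromatin enzymes, though with earlier results of these data known. All 49 were among the 18493 genes of the deposited table and among the 12887 that passed the filter on low counts. RNA was measured in CD4+CD25+YFP+ regulatory T (Treg) cells sorted from spleen and lymph nodes of C57BL/6 female mice aged 7 weeks, with 3 libraries per group. The knockout group (cKO) came from Foxp3cre/+ TKTfl/fl mice, in which the Cre under Foxp3 control deletes Tkt, the gene of transketolase, an enzyme of the pentose phosphate pathway. The reference mice (WT) carried Foxp3cre/+ alone, so the Cre allele was present in both groups. Foxp3 is X-linked, females with 1 Cre allele are mosaic, and the YFP gate takes the cells in which the Cre allele is active. The labels do not say whether a library holds 1 animal or a pool, so a p-value here reflects only how far these libraries spread, which may be technical.

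Histone tails carry methyl and acetyl groups that other proteins read. Acetyltransferases use acetyl-CoA and generally open chromatin, deacetylases remove the acetyl group, and sirtuins do so at the cost of NAD. Methyltransferases use S-adenosylmethionine, and their effect depends on the residue: H3K4 methylation marks active promoters and enhancers, and methylation by Polycomb repressive complex 2 (PRC2) or at H3K9 marks silent genes. Several of these enzymes are known to matter in Treg cells, among them Ezh2, the acetyltransferases Ep300 and Kat5, and the deacetylases Hdac6, Hdac9 and Sirt1, which act on chromatin or on the Foxp3 protein itself.

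The libraries held 17647866 to 18215168 estimated reads in cKO and 17180577 to 17715571 in WT. Tkt stood at 52.5, 44.8 and 31.9 CPM (reads scaled to library size, with TMM factors) in cKO, against 126.0, 97.1 and 120.6 CPM in WT (log2 fold change -1.41 ± 0.19 SE; edgeR adjusted p = 0.0516, called in 7 of 16 alternatives). Its level after TMM was lower in every cKO library than in any WT library, while the p missed the threshold of 0.05. The value covers the whole gene, since the labels do not give the deleted exons. The Treg markers were present: Foxp3 averaged 620.4 ± 58.9 CPM in cKO and 598 ± 122.7 CPM in WT (SD, n = 3 each). The 8 measured markers of Treg and T cells together took 4431.9 to 4701.9 CPM in cKO and 4926.8 to 5275.0 CPM in WT. Every cKO sum thus lay below every WT sum. By fold change, 4 of the 8 were above 0 and 4 below (median log2 fold change -0.055), and edgeR called 0. At an unadjusted p under 0.05 in edgeR's test, Cd3g and Ikzf2 were lower in cKO (log2 fold changes -0.275 and -0.206). Of all genes tested, 7.69% passed that limit. Markers of B cells summed to 51.4 to 121 CPM in cKO and 64.5 to 97.7 CPM in WT, and myeloid markers to 77.0 to 164 CPM in cKO and 72.5 to 115 CPM in WT. By fold change, 7 of 9 tested B cell markers were above 0 (median log2 fold change 0.90) and 13 of 14 myeloid markers (median 0.51), and edgeR called 0 of either list (2 B cell markers and 1 myeloid marker higher, and 1 B cell marker lower, at an unadjusted p under 0.05). Markers of CD8 T and NK cells summed to 35.0 to 42.1 CPM in cKO and 37.8 to 42.6 CPM in WT. Erythroid markers summed to 199 CPM in cKO1 and to 0.277 to 5.80 CPM in the other libraries. The libraries cKO1 and WT2 lay apart from the rest on the first principal component of all genes, at 33.2 and 25.4 against -25.9 to 8.1.

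None of the 49 genes was called different between cKO and WT Treg cells by the test across all genes. In edgeR's quasi-likelihood test with Benjamini-Hochberg adjustment, 0 of the 49 were called, against 0.21% of the 12887 genes tested. DESeq2 and limma-voom also called 0 of the 49, where DESeq2 called 1.37% of all genes and limma-voom 19 of 12887. At an unadjusted p under 0.05 there were 3 members, 2 higher and 1 lower in cKO (Ezh2, Hdac5 and Kmt2c), where 7.69% of all genes tested passed that limit. The fold changes were small as well as uncalled: the log2 fold changes ran from -0.29 to 0.27, and their median size was 0.072, beside 0.105 over all genes tested. In bulk RNA, fewer cells of a type and less RNA per cell cannot be told apart, which holds for every value here.

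The width of the intervals shows what size of change these libraries would leave room for. For 45 of the 49 members the 95% interval of the log2 fold change lay inside 0.585 in both directions, that is, within 1.5-fold, and for all 49 it lay within 2-fold. The 4 members with wider intervals were the least abundant ones: Suv39h2 (-0.41 to 0.69), Hdac9 (-0.79 to 0.66), Hdac11 (-0.79 to 0.36) and Sirt3 (-0.52 to 0.78). The intervals are per gene and are not adjusted for the number of genes. The median standard error was 0.10 over the members and 0.13 over all genes tested. The median log2 fold change was 0.04 over the members and 0.004 over all genes, with 32 members above 0 and 17 below.

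**Figure D1:**
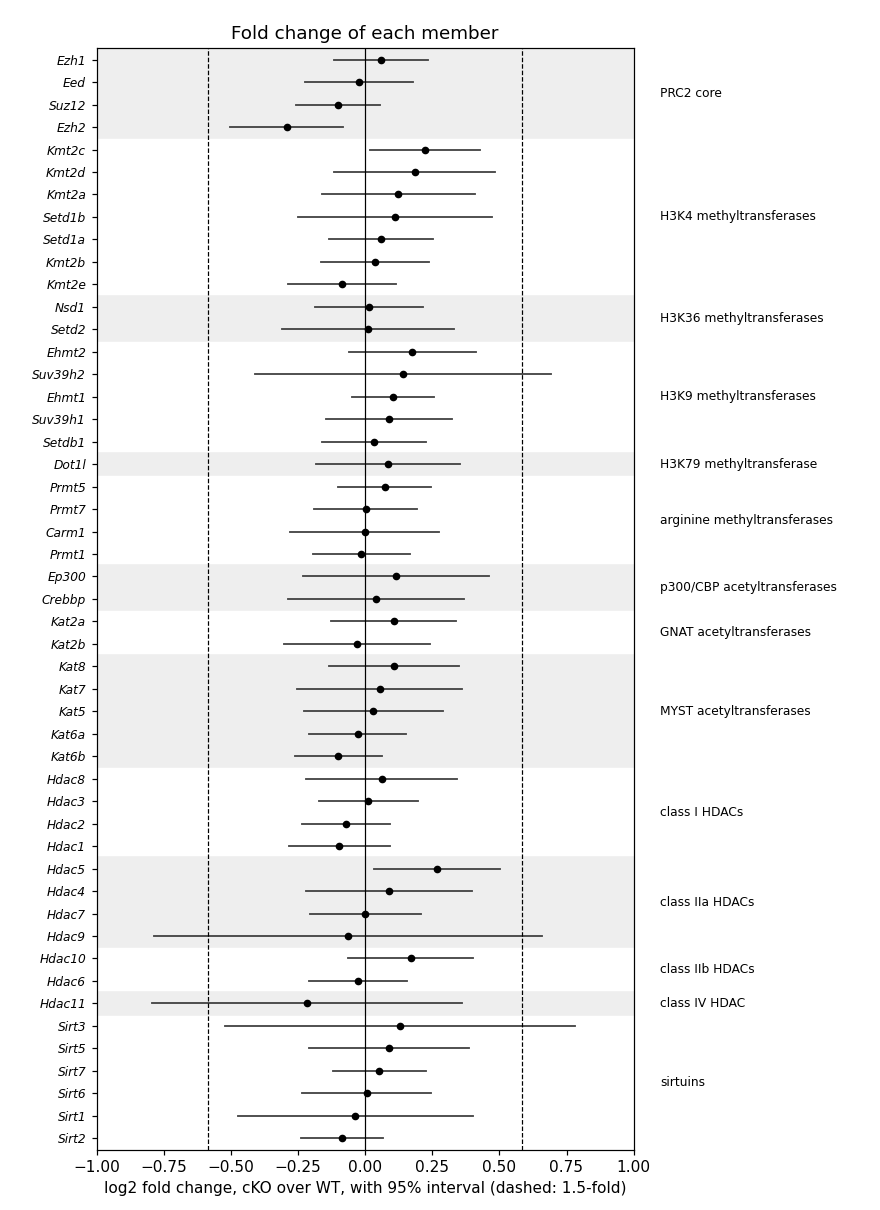
Fitted log2 fold change of each of the 49 genes, cKO over WT (points), with its 95% interval (lines), ordered by enzyme class. Dashed lines mark 1.5-fold in either direction; the intervals of Suv39h2, Hdac9, Hdac11 and Sirt3 cross at least 1 of them, and the other 45 stay inside.

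Levels per length (FPKM, reads scaled by gene length and library depth) placed these genes above the typical gene of the cells. The median of the mean FPKM over the 6 libraries was 23.6 for the members and 9.503 for all genes tested, and 40 of the 49 lay above 10 FPKM. The highest were Hdac7 at 125 FPKM, Hdac1 at 99.3 FPKM and Sirt7 at 85.8 FPKM. The 4 lowest were Hdac9 (1.93 FPKM), Hdac11 (1.91 FPKM), Sirt3 (1.49 FPKM) and Suv39h2 (0.753 FPKM). The order between neighbours was mostly not resolved. Of 48 neighbouring pairs in the order of levels, 5 had ranges over the libraries that did not touch, and these set Hdac7 above Hdac1, Sirt7 above Kmt2e, Hdac5 above Prmt7, Hdac8 above Hdac9, and Sirt3 above Suv39h2.

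**Figure D2:**
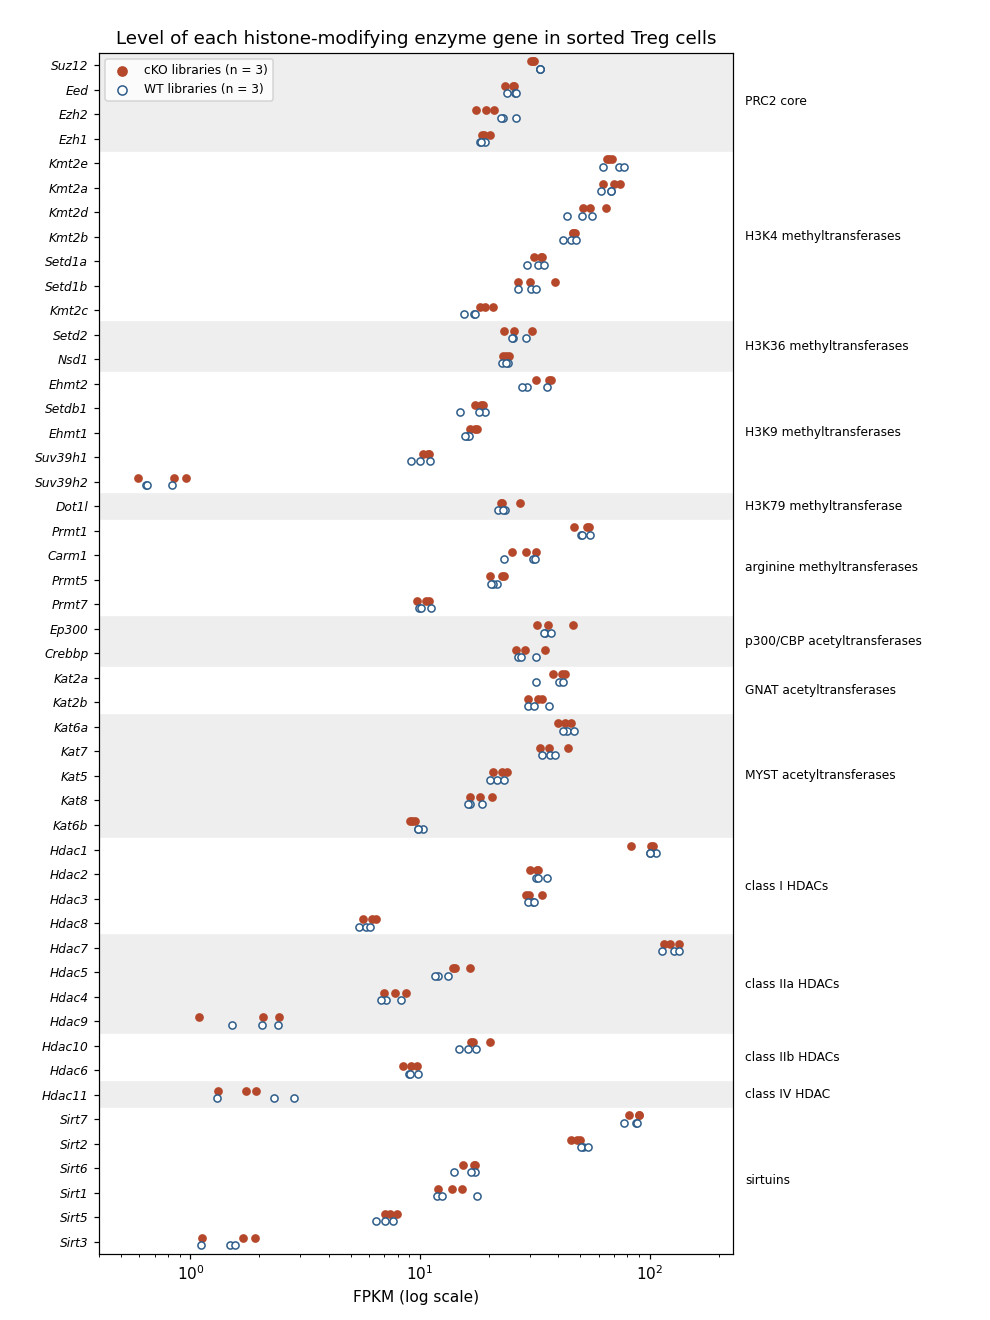
FPKM (log scale) of each of the 49 genes in the 3 cKO libraries (filled) and the 3 WT libraries (open), grouped by class. Hdac7 at 125 FPKM is highest and Suv39h2 at 0.753 FPKM lowest by mean, and the ranges of the groups overlap for most genes.

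PRC2, which methylates H3 on lysine 27, is built from the catalytic subunit Ezh2 or its paralog Ezh1 with Suz12 and Eed, and Ezh2 is the form known to dominate in dividing cells. The promoters of all 4 core genes are shown because Ezh2 had the lowest p of the 49 members and Suz12 was the other PRC2 gene whose groups did not overlap. Each is the window from 250 bases before to 50 bases after the annotated start in RefSeq (GRCm38.p6, the assembly of mm10), read 5′ to 3′ on the strand of the gene. Capitals mark matches to the E2F-type octamers TTTCCCGC, TTTGGCGC, TTTCGCGC and TTTGCCGC on either strand. The windows are chr6:47594981-47595280 (minus strand) for Ezh2, chr11:101226414-101226713 (minus) for Ezh1, chr11:79992856-79993155 (plus) for Suz12 and chr7:89980927-89981226 (minus) for Eed. The annotated Ezh2 gene extends to chr6:47595270, so the start used for its window lies inside the gene and is not the outermost one.
Ezh2: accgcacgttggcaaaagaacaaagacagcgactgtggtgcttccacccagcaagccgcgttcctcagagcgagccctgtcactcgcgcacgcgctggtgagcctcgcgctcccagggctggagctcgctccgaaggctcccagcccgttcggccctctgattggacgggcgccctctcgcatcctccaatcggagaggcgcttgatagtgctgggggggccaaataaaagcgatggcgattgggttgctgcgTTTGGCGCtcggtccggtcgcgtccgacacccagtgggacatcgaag
Ezh1: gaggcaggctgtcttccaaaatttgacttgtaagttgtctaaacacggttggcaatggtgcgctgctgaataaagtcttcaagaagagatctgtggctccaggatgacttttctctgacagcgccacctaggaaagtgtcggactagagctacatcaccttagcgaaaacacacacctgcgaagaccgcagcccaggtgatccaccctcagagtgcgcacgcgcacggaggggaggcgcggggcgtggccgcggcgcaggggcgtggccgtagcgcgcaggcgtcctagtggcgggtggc
Suz12: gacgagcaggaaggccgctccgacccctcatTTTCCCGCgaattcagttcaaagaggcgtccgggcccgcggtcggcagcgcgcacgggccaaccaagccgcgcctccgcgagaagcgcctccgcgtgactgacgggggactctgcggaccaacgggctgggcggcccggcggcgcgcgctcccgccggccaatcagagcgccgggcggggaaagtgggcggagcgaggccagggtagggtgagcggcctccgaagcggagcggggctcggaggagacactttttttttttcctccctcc
Eed: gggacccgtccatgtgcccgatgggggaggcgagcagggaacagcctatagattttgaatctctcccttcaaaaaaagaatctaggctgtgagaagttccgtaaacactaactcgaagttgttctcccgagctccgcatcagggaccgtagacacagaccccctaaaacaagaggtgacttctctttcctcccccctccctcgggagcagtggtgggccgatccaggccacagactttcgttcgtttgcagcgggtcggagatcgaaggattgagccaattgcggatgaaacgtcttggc

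Ezh2 and Suz12 each held 1 such octamer, beginning at base 4 after the start in Ezh2 and 219 bases before it in Suz12, and Ezh1 and Eed held none. Among the 52 promoter windows found for 40 of the members, 4 held one (7.7%), those of Ezh2, Suz12, Kat2a and Suv39h1, beside 2.3% of all 32851 windows. The log2 fold changes of these genes were -0.29, -0.10, 0.11 and 0.09 in that order. Member windows were also richer in CG dinucleotides, with a median of 23 against 7 over all windows, and the GC box GGGCGG, searched on both strands, was in 65.4% of them against 35.7%. The CCAAT box was in 38.5% of them against 37.4%, and the TATA box in 3.8% against 13.6%. The windows of one gene can overlap, and a match in letters is a description and not a binding site.

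Ezh2 stood at 44.5, 52.5 and 47.3 CPM in cKO, against 62.7, 58.7 and 55.5 CPM in WT. All cKO libraries lay below all WT libraries, with cKO1 lowest and WT1 highest. The means were 48.1 ± 4.06 CPM in cKO and 59.0 ± 3.58 CPM in WT (SD, n = 3 each), and the log2 fold change was -0.29 ± 0.09 (SE; 95% interval -0.50 to -0.08). Its adjusted p in edgeR's test was 0.424, and over 16 alternatives it ran from 0.374 to 0.955. Suz12, the scaffold of the complex, also lay lower in all cKO libraries, at 142, 137 and 132 CPM against 144, 150.3 and 146 CPM in WT. The gap between its groups was narrow (log2 fold change -0.10 ± 0.07 SE; adjusted p = 0.833). Eed, which binds the methyl mark and stimulates the enzyme, stood at 48.1 to 54.5 CPM in cKO and 48.8 to 55.9 CPM in WT, so its groups overlapped. Ezh1 stood at 88.5, 80.2 and 77.64 CPM in cKO, against 79.7, 79.35 and 77.55 CPM in WT (log2 fold change 0.06 ± 0.07 SE).

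The balance of the 2 catalytic subunits was compared within each library. The ratio of Ezh2 to Ezh1 in FPKM was 0.870, 1.103 and 1.04 in cKO, against 1.37, 1.27 and 1.22 in WT. Every WT library held more Ezh2 than Ezh1 per length, and 1 of the cKO libraries, cKO1, held less. The mean log2 ratio was -0.002 ± 0.178 in cKO and 0.36 ± 0.09 in WT (SD, n = 3 each). The smallest two-sided p of an exact permutation test of 3 against 3 is 0.1, and no test was made. Of 12 paralog pairs compared in this way Ezh2 over Ezh1 was the only one whose groups did not overlap. The ratio holds the Ezh2 values given above, so it is no separate support, and among single genes 6.1% did not overlap with cKO higher and 8.12% with cKO lower. Genes of proliferation differed between the same libraries: the mean log2 CPM of 40 cell cycle genes was 3.14, 4.11 and 3.95 in cKO1, cKO2 and cKO3, against 4.44, 4.28 and 3.87 in WT1, WT2 and WT3. Their median log2 fold change was -0.45, 38 of 40 were below 0, and 0 were called by edgeR (3 lower at an unadjusted p under 0.05). The library with the lowest cell cycle level, cKO1, had the lowest Ezh2, and WT1 was highest in both, while WT3 lay below cKO2 and cKO3 in cell cycle genes and above them in Ezh2. Immediate early genes had a median log2 fold change of -0.15, with 21 of 30 below 0. Of these 30, edgeR called 0, and 4 were lower at an unadjusted p under 0.05. The part of cell cycle or immediate early expression in the Ezh2 values was not tested.

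**Figure D3:**
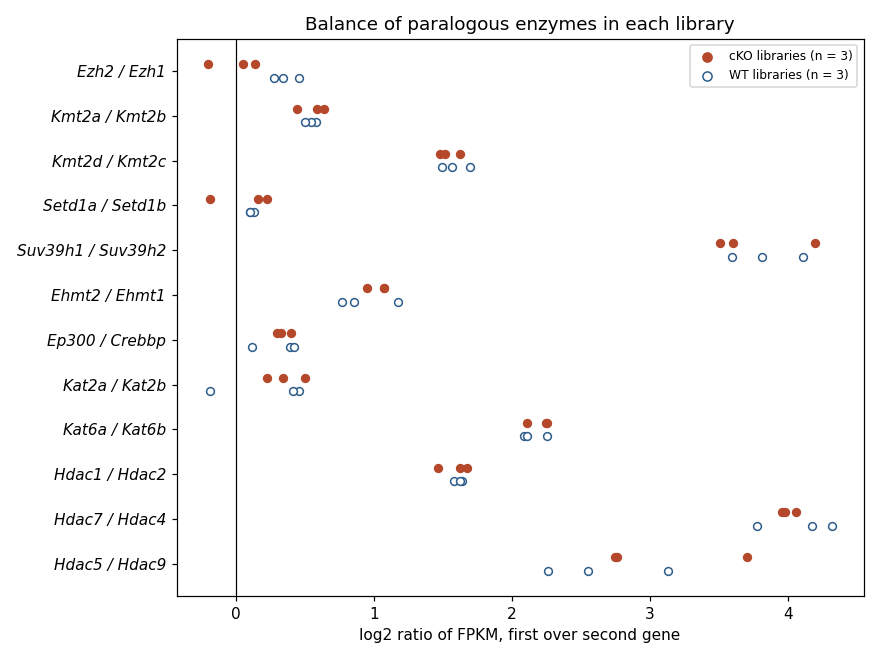
Log2 ratio of FPKM for 12 pairs of paralogous enzymes in each cKO library (filled) and WT library (open). The groups are apart for Ezh2 over Ezh1 (mean -0.002 in cKO and 0.36 in WT) and overlap for the other 11 pairs.

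The H3K4 methyltransferases are the MLL family (Kmt2a to Kmt2d), which acts at promoters and enhancers, and Setd1a and Setd1b, which place most promoter trimethylation. Kmt2c, an enhancer enzyme, had the third lowest p of all members. It stood at 367, 311 and 325 CPM in cKO, against 290.5, 274 and 296 CPM in WT. The cKO libraries lay above the WT libraries without overlap, by most in cKO1 (log2 fold change 0.22 ± 0.09 SE; adjusted p = 0.591). Its paralog Kmt2d stood at 1340.3, 1027.5 and 1088.8 CPM in cKO, against 1008.1, 906.9 and 1126.7 CPM in WT. Here the groups overlapped, since WT3 exceeded both cKO2 and cKO3 (log2 fold change 0.18 ± 0.13 SE; adjusted p = 0.844). Per length Kmt2d exceeded Kmt2c 2.79-fold to 3.24-fold in every library, at 56.8 ± 6.77 FPKM in cKO and 50.3 ± 6.32 FPKM in WT against 19.5 ± 1.29 FPKM and 16.7 ± 1.017 FPKM for Kmt2c in cKO and WT (SD, n = 3).

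Kmt2a, the founding MLL gene, stood at 68.9 ± 5.70 FPKM in cKO and 65.8 ± 3.66 FPKM in WT, and its paralog Kmt2b at 46.7 ± 0.652 FPKM and 45.1 ± 2.92 FPKM in cKO and WT (SD, n = 3). Kmt2a exceeded Kmt2b in all 6 libraries, by 1.36-fold to 1.56-fold. Kmt2e, a more distant relative with a SET domain and a PHD finger, was the highest of the class by the mean of all 6 libraries, though Kmt2a was higher in cKO and their ranges overlapped. It stood at 68.6, 66.3 and 65.1 FPKM in cKO and 73.5, 62.9 and 77.2 FPKM in WT. Its groups overlapped through WT2 (log2 fold change -0.09 ± 0.09 SE; adjusted p = 0.918). Setd1a and Setd1b were close to each other, at 31.5 to 34.1 FPKM and 26.9 to 38.8 FPKM in cKO and 29.3 to 34.6 FPKM and 26.7 to 32.1 FPKM in WT. Setd1b exceeded Setd1a in cKO1 alone.

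The methyltransferases of H3K9, which mark heterochromatin and silenced genes, all had log2 fold changes above 0, from 0.03 to 0.17, and none was called. Without cKO1, 4 of the 5 were above 0, and without both cKO1 and WT2, 3 of 5. Ehmt2 (G9a), with Ehmt1 (GLP) the enzyme of dimethylation in euchromatin, stood at 128, 137 and 139 CPM in cKO, against 112, 110.3 and 136 CPM in WT. WT3 lay within the cKO range, so the groups overlapped (log2 fold change 0.17 ± 0.10 SE; adjusted p = 0.792). Ehmt1 stood at 87.5, 87.1 and 88.1 CPM in cKO, against 80.0, 85.1 and 79.6 CPM in WT. These groups did not overlap, but the difference was small (log2 fold change 0.10 ± 0.07 SE; adjusted p = 0.824). Setdb1, which silences retroelements, averaged 18.2 ± 0.686 FPKM in cKO and 17.5 ± 2.19 FPKM in WT (SD, n = 3). Of the Suv39h pair, which trimethylates pericentric heterochromatin, Suv39h1 was the more abundant: it exceeded Suv39h2 11.4-fold to 18.3-fold per length, at 10.7 ± 0.318 FPKM in cKO and 10.04 ± 0.951 FPKM in WT (SD, n = 3).

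Setd2 and Nsd1 methylate H3K36, in transcribed genes and between genes. Setd2 stood at 30.8, 25.6 and 23.2 FPKM in cKO, against 25.3, 28.9 and 25.1 FPKM in WT, and Nsd1 at 22.9 to 24.4 FPKM in cKO and 22.7 to 24.2 FPKM in WT. Both pairs of groups overlapped (log2 fold changes 0.01 for each). Dot1l, the H3K79 methyltransferase, stood at 27.4, 22.5 and 22.8 FPKM in cKO and 21.8, 23.5 and 23.0 FPKM in WT, so that cKO1 alone stood above the rest (log2 fold change 0.09 ± 0.11 SE).

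The arginine methyltransferases modify histones and many other proteins, and none of the 4 was called. Prmt1, the main enzyme of asymmetric dimethylation, stood at 46.7, 54.5 and 53.3 FPKM in cKO and 54.9, 50.2 and 50.8 FPKM in WT. Prmt5, the main enzyme of symmetric dimethylation, averaged 22.1 ± 1.68 FPKM in cKO and 20.9 ± 0.611 FPKM in WT (SD, n = 3). Carm1, a coactivator of transcription, stood at 28.8 ± 3.37 FPKM in cKO and 28.6 ± 4.69 FPKM in WT, and Prmt7, which monomethylates arginine, at 10.4 ± 0.609 and 10.4 ± 0.636 FPKM in cKO and WT. The log2 fold changes of the 4 genes ran from -0.01 to 0.07.

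Of the acetyltransferases, 0 of 9 were called and 0 had groups that did not overlap, and their median log2 fold change was 0.04. Over all genes tested, edgeR called 0.21%, while 6.1% did not overlap with cKO higher and 8.12% with cKO lower. With 9 genes, counts of 0 do not set the class apart from that background. Ep300 (p300) and Crebbp (CBP) are the broad coactivators of enhancers, and p300 also acetylates Foxp3. Ep300 stood at 418, 312 and 278 CPM in cKO, against 301, 309 and 320.2 CPM in WT, and Crebbp at 304, 249.7 and 224.5 CPM in cKO, against 228, 290.3 and 238 CPM in WT. For both, cKO1 was the highest library and cKO3 the lowest, so the spread within cKO was wider than the difference between the groups (log2 fold changes 0.12 ± 0.15 and 0.04 ± 0.14 SE). Ep300 exceeded Crebbp per length in all libraries, by 1.09-fold to 1.34-fold.

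Kat2a (GCN5) and Kat2b (PCAF), the acetyltransferases of the SAGA and ATAC complexes, were at like levels, at 38.2 to 43.0 FPKM and 29.4 to 33.9 FPKM in cKO and 32.2 to 42.0 FPKM and 29.4 to 36.6 FPKM in WT. Kat2b exceeded Kat2a in WT2 alone. In CPM, Kat2a stood at 116, 118 and 124 in cKO, against 115, 95.9 and 121 in WT. Its log2 fold change was 0.11 ± 0.10 (SE, adjusted p = 0.9085 in edgeR's test). Among the MYST family, Kat6a (MOZ) stood at 45.5, 39.8 and 43.0 FPKM in cKO and 43.8, 42.1 and 46.7 FPKM in WT, and exceeded its paralog Kat6b (MORF) 4.25-fold to 4.78-fold. Kat6b had groups that barely touched, at 71.8, 67.4 and 65.9 CPM in cKO and 74.5, 73.7 and 71.6 CPM in WT (log2 fold change -0.10 ± 0.07 SE; adjusted p = 0.844). Kat7 (HBO1) averaged 38.0 ± 5.49 FPKM in cKO and 36.6 ± 2.28 FPKM in WT (SD, n = 3). Kat5 (TIP60), which also modifies Foxp3, averaged 22.5 ± 1.57 FPKM in cKO and 21.7 ± 1.498 FPKM in WT, and Kat8 (MOF), the H4 lysine 16 enzyme, 18.5 ± 1.99 FPKM and 17.2 ± 1.31 FPKM in cKO and WT.

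The class I deacetylases are nuclear enzymes of the corepressor complexes. Hdac1 was the most abundant of them, at 240, 269 and 268 CPM in cKO, against 272, 291 and 267 CPM in WT. Only cKO1 stood below the WT range (log2 fold change -0.10 ± 0.08 SE; adjusted p = 0.892). Hdac1 exceeded Hdac2 by 2.77-fold to 3.19-fold per length. Hdac2 stood at 31.8 ± 1.52 FPKM in cKO and 33.5 ± 1.94 FPKM in WT, Hdac3, the enzyme of the NCoR and SMRT complexes, at 30.9 ± 2.67 and 30.7 ± 0.990 FPKM, and Hdac8 at 6.10 ± 0.40 and 5.79 ± 0.323 FPKM in cKO and WT (SD, n = 3).

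Class IIa deacetylases shuttle between cytoplasm and nucleus and bind MEF2 factors. Hdac5 had the second lowest p of all members and the largest positive log2 fold change. It stood at 68.1, 55.3 and 57.1 CPM in cKO, against 48.1, 48.8 and 52.9 CPM in WT. The groups did not overlap, with cKO1 well above the rest and cKO2 just above WT3 (log2 fold change 0.27 ± 0.10 SE; 95% interval 0.03 to 0.50; adjusted p = 0.553). Hdac7, a class IIa enzyme prominent in T cells, was the most abundant of all 49 genes, at 135, 123 and 116 FPKM in cKO and 128, 114 and 135 FPKM in WT. The groups covered nearly the same range (95% interval of the log2 fold change -0.21 to 0.21). It exceeded Hdac4 by 13.7-fold to 20.0-fold, Hdac4 being at 7.80 ± 0.870 FPKM in cKO and 7.38 ± 0.813 FPKM in WT (SD, n = 3). Hdac9, which restrains Treg function in mice, stood at 2.44, 2.08 and 1.09 FPKM in cKO and 2.05, 2.42 and 1.52 FPKM in WT.

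Of the class IIb enzymes, Hdac10 stood at 46.5, 45.8 and 54.4 CPM in cKO, against 43.1, 40.4 and 46.9 CPM in WT, with WT3 inside the cKO range (log2 fold change 0.17 ± 0.10 SE; adjusted p = 0.792). Hdac6, a mainly cytoplasmic tubulin deacetylase, stood at 9.08 ± 0.632 FPKM in cKO and 9.26 ± 0.493 FPKM in WT (SD, n = 3). Hdac11, the class IV enzyme, was scarce, at 1.32, 1.93 and 1.75 FPKM in cKO and 2.32, 1.30 and 2.83 FPKM in WT. Its log2 fold change of -0.22 ± 0.25 (SE) was not resolved from 0.

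The sirtuins are the NAD-dependent deacetylases, and NAD links them to metabolism. Sirt7, a nucleolar and chromatin enzyme, was the most abundant, at 81.4, 90.2 and 90.3 FPKM in cKO and 87.2, 77.4 and 88.0 FPKM in WT. Sirt2, mostly cytoplasmic, stood at 85.9, 89.5 and 87.3 CPM in cKO, against 90.3, 92.4 and 95.96 CPM in WT. Its groups did not overlap, with less than 1 CPM between cKO2 and WT1 (log2 fold change -0.09 ± 0.07 SE; adjusted p = 0.872). Sirt6, a chromatin-bound enzyme, stood at 16.6 ± 1.11 FPKM in cKO and 16.0 ± 1.71 FPKM in WT (SD, n = 3). Sirt1, which deacetylates Foxp3, stood at 15.2, 13.8 and 11.95 FPKM in cKO and 11.9, 17.7 and 12.5 FPKM in WT, highest in WT2 and next in cKO1. The mitochondrial Sirt5 and Sirt3 stood at 7.07 to 7.97 FPKM and 1.12 to 1.92 FPKM in cKO and 6.43 to 7.63 FPKM and 1.11 to 1.57 FPKM in WT.

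Across all classes, 6 members had groups that did not overlap in CPM: Kmt2c, Ehmt1 and Hdac5 were higher in all cKO libraries, and Ezh2, Suz12 and Sirt2 lower. Among all genes tested, 6.1% did not overlap with cKO higher and 8.12% with cKO lower, so 3 of 49 in each direction is near the background.

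**Figure D4:**
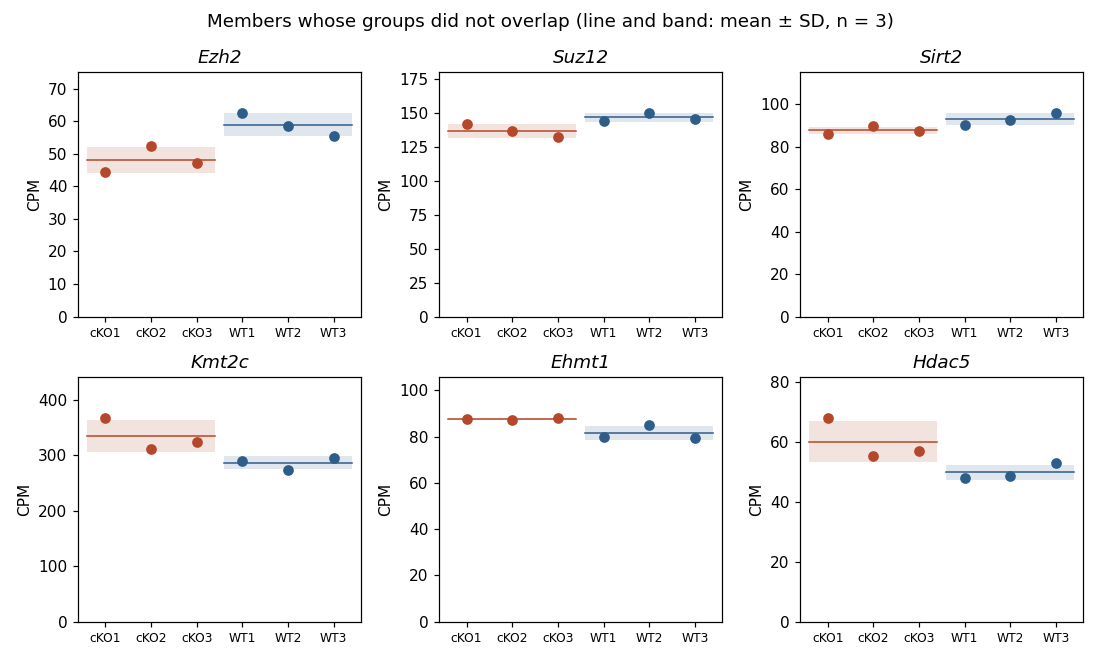
CPM of the 6 members whose groups did not overlap, by library, with cKO left of WT (line and band: mean ± SD, n = 3). Ezh2, Suz12 and Sirt2 are lower in every cKO library and Kmt2c, Ehmt1 and Hdac5 higher, and 0 of the 6 passed the adjusted test.

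The members did not vary evenly over the libraries. cKO1 was the highest of the 6 libraries for 23 of 49 members (46.9%), against 19.2% of all genes tested. The share was higher for long mRNAs, with length taken as that implied by the deposited reads and FPKM. All 10 members over 8000 bases (Kmt2a, Kmt2b, Kmt2c, Kmt2d, Setd1b, Setd2, Nsd1, Ep300, Crebbp and Hdac4) were highest in cKO1, at 1.09 to 1.35 times the median of the other libraries. Among the 700 genes tested of that length, 29.7% were highest in cKO1 and 33.7% in WT2. The length limits were chosen after the values were seen, so these are descriptions. In cKO1 the median deviation of log2 CPM from the mean of the libraries was 0.26 over the 10 long members, 0.12 over the 19 of 3000 to 8000 bases and -0.05 over the 20 shorter ones. Over all genes of those lengths it was 0.09, 0.04 and -0.04. In WT2, the long members lay at -0.08, while all genes over 8000 bases lay at 0.10.

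Without cKO1 the directions of many members changed. The members' median log2 fold change was -0.02, with 20 above 0 and 29 below, in place of 0.04 with 32 above and 17 below. The median of the H3K4 class was -0.006 in place of 0.11, and that of the 10 long members -0.03 in place of 0.10. Without both cKO1 and WT2 the members' median was 0.003, with 25 above 0 and 24 below. Ezh2 had log2 fold changes of -0.24 without cKO1 and -0.24 without both, Hdac5 0.17 and 0.16, and Kmt2c 0.15 and 0.12, and 0 of the 3 were called. Over all genes tested, 0 were called without cKO1 and 71 without both. The part of the erythroid RNA and of the low cell cycle level of cKO1 in these values was not tested.

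**Figure D5:**
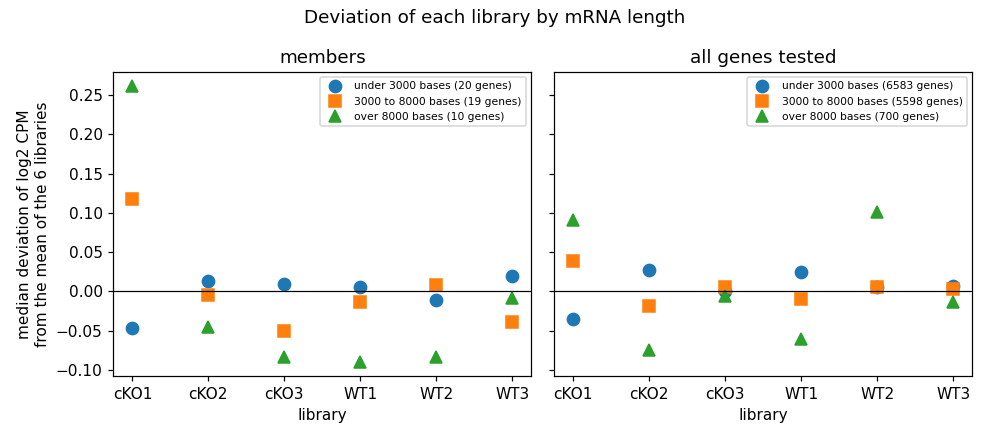
Median deviation of log2 CPM from each gene's mean over the 6 libraries, by library and by implied mRNA length, for the members (left) and all genes tested (right). The 10 members over 8000 bases stand at 0.26 in cKO1 and at or below -0.008 in the other libraries.

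The partners of these enzymes were examined in 10 lists of complex subunits, related enzymes, erasers, readers and cofactor suppliers, 214 tested genes in all. None of the 214 was called by edgeR (9 at an unadjusted p under 0.05, 5 higher and 4 lower), none by limma-voom, and 2, both lower, by DESeq2. Over all genes tested, 7.69% had an unadjusted p under 0.05 in edgeR's test, DESeq2 called 1.37% and limma-voom 19 of 12887. The lists thus held no more than the background. Their median log2 fold change was 0.02. The 2 were Nsd2, an H3K36 methyltransferase related to Nsd1, and Pcgf2, a Polycomb repressive complex 1 subunit. Nsd2 stood at 46.8, 53.0 and 49.3 CPM in cKO, against 70.3, 69.2 and 62.8 CPM in WT (log2 fold change -0.44 ± 0.08 SE; edgeR adjusted p = 0.125; DESeq2 adjusted p = 0.00561). Pcgf2 stood at 3.60, 5.51 and 4.23 CPM in cKO, against 10.3, 9.21 and 8.17 CPM in WT (log2 fold change -1.05 ± 0.20 SE; edgeR adjusted p = 0.125; DESeq2 adjusted p = 0.00334). In both genes all cKO libraries lay below all WT libraries, and DESeq2 was the only one of 16 alternatives that called either.

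The accessory subunits of PRC2 had a median log2 fold change of -0.05 over 10 genes, with 8 below 0 and a range of -0.18 to 0.37. Aebp2, one of these subunits, stood at 130.1 to 142 CPM in cKO and 145 to 162 CPM in WT without overlap (adjusted p = 0.656), and Mtf2, another, at 72.5 to 78.6 CPM and 77.9 to 89.0 CPM (adjusted p = 0.712). The PRC1 subunits had a median that rounds to 0 over 19 genes, with a range of -1.05 (Pcgf2) to 0.16. The COMPASS subunits, which complete the H3K4 enzymes, had a median of 0.05 over 16 genes, and Wdr5, their common scaffold, stood at 49.5 to 52.6 CPM in cKO and 43.5 to 47.7 CPM in WT (adjusted p = 0.642). The medians were -0.01 for 22 other methyltransferases, 0.06 for 10 other acetyltransferases, 0.03 for 41 subunits of acetyltransferase complexes and 0.05 for 34 subunits of HDAC corepressors. None of these lists had a called gene in edgeR's test.

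The enzymes that erase methyl marks, the readers and the suppliers of cofactors also held no gene called by edgeR. The median log2 fold change was 0.04 over 23 histone demethylases and 0.02 over 23 readers. In the first, Kdm4d, an H3K9 demethylase with few reads, had the lowest p, at 0.407 to 0.613 CPM in cKO and 0.777 to 1.24 CPM in WT (adjusted p = 0.567). Kdm3b, another H3K9 demethylase, stood at 264 to 304 CPM in cKO and 215 to 259 CPM in WT (adjusted p = 0.614). In the second, L3mbtl2, a Polycomb-associated reader, stood at 32.1 to 34.0 CPM in cKO and 27.4 to 30.2 CPM in WT (adjusted p = 0.52). Cbx3, which encodes the H3K9 methyl reader HP1 gamma, stood at 90.0 to 107 CPM in cKO and 115 to 123 CPM in WT (adjusted p = 0.524). The 19 genes that supply acetyl-CoA, S-adenosylmethionine and NAD had a median of 0.03. Among them Acss2, which makes acetyl-CoA from acetate, stood at 40.4, 35.9 and 41.3 CPM in cKO, against 31.7, 29.5 and 32.3 CPM in WT. Its groups did not overlap (log2 fold change 0.33 ± 0.09 SE; edgeR adjusted p = 0.304, DESeq2 adjusted p = 0.214).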

How the data were processed

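RNA of sorted Treg cells was sequenced from 3 cKO and 3 WT samples. The submitters' processing notes list the build mm10 and, without their roles, the tools DESeq2 1.16.1, HISAT2 2.0.5 and featureCounts 1.5.0-p3. The authors deposited estimated counts per gene, not normalized. Of a library's values, 45.4% to 46.3% were not whole within 0.01, and the sources do not say which step made fractions. Genes under unnamed identifiers held 2.11% to 2.33% of the reads. The authors also deposited values read here as FPKM: the gene length they imply varied between libraries by a median of 0.77% (CV) over 5583 genes.

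Rounded estimated counts were fitted in R 4.3.3 with edgeR 4.0.16: filterByExpr (minimum count 10), TMM scaling and the quasi-likelihood F test (legacy fit), with group as the only term. Benjamini-Hochberg adjustment ran over all genes tested, with a threshold of 0.05. Standard errors were derived from the F statistic, and intervals use 7.26 degrees of freedom. The common biological coefficient of variation was 16.7%. CPM after TMM serves comparisons between groups and FPKM those between genes. Mean log2 CPM and deviations used a pseudocount of 0.1.

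The members and lists were chosen with earlier results of these data known. By rule, values per library are given for Tkt, the 12 members with the lowest p, the highest member by FPKM of each of 14 classes and paralog pairs with groups apart. Up to 2 genes with the lowest p could be named from each partner list; Foxp3 is given as the defining marker. Alternatives were DESeq2 1.42.0, limma-voom (limma 3.58.1), other scalings and filters, a replicate block, other dispersion fits, and libraries left out. The code was tested on simulated data.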

Additional observations from a re-analysis of the deposited data

How the results depend on the processing

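Over 16 alternatives, 0 of the 49 members were called. With the replicate block, and in each fit without 1 library other than WT2, 0 of all genes were called. Those fits could therefore call no member, and the counts over all genes in the others are given below. The lowest adjusted p of any member was 0.313, for Kmt2e without WT2 and cKO1. Of 22 members named by rule, 15 kept their direction in all alternatives and 7, with log2 fold changes from -0.03 to 0.18, did not. The log2 fold change of Hdac7 was 0.002 with DESeq2, 0.003 with RLE factors, 0.001 under both the unfiltered and the stricter gene set. Without WT2 and cKO1, it was -0.012 for Kmt2d, -0.046 for Setd2, 0.034 for Prmt1 and -0.074 for Ep300. Leaving out 1 library at a time gave ranges of -0.133 to 0.108 for Setd2, -0.035 to 0.143 for Dot1l, -0.054 to 0.036 for Prmt1, -0.072 to 0.235 for Ep300, -0.078 to 0.012 for Kat6a and -0.067 to 0.057 for Hdac7. Kmt2d, which changed direction only without both WT2 and cKO1, ran from 0.062 to 0.269. Among members that kept their direction, those ranges were 0.001 to 0.096 for Ezh1, -0.145 to -0.034 for Kmt2e, 0.12 to 0.284 for Ehmt2 and 0.012 to 0.179 for Kat2a. They were -0.128 to -0.043 for Hdac1, 0.171 to 0.322 for Hdac5, 0.087 to 0.23 for Hdac10, -0.379 to -0.04 for Hdac11 and 0.013 to 0.086 for Sirt7. Ezh2 ran from -0.364 to -0.239, Suz12 from -0.128 to -0.075 and Kmt2c from 0.15 to 0.268. Ehmt1 ran from 0.087 to 0.134, Kat6b from -0.135 to -0.074 and Sirt2 from -0.105 to -0.059. The members' median ran from -0.016 to 0.065 in those fits. The cause was not tested, beyond the values without cKO1 given above.

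The count of called genes was 27 of 12887, and 177 with DESeq2, 43 without a filter on low counts, 48 with robust empirical Bayes and 71 without WT2 and cKO1. Without 1 library it ran from 0 to 30, and was 0 for each but WT2 (681 to 909 genes at an unadjusted p under 0.05). With the replicate block 0 genes and 0 members were called (811 genes and 2 members at an unadjusted p under 0.05). Same-numbered samples correlated at -0.28, 0.06 and 0.26 in their deviations from the group means, and not every sample correlated best with its own number. The spread is shared across genes in every fit, also in those that leave a group with 2 libraries. The widest intervals were those of Suv39h2, Hdac9, Hdac11 and Sirt3; the part of depth in them was not tested.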
